A study of Mus musculus with 10 samples.

Results

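Chromosome 10 of the mouse carries 2 tandem runs of predicted genes that look alike in sequence. They were followed here in embryonic stem cells (ESC) through 18 of the 43031 features that the authors quantified, each of which joins the annotated 3′UTR of a UCSC transcript to the next 2 kb of the genome. The first run holds 6 features between positions 100330000 and 100390000 of mm10, from Gm4301 to Gm4312, and is called run 1. The second holds 12 features between 104150000 and 104200000, from Gm21293 to Gm4340, and is called run 2. Every feature lay wholly inside its window. The runs were chosen for their values in these same libraries, so their differences between WT, DIDO3ΔE16 and DIDO3ΔCT+HADIDO3 are given as a description, with no p-value.

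RNA was sequenced from 3 groups of C57BL/6 mouse ESC, each represented by 3 libraries. WT cells were wild type, DIDO3ΔE16 cells were homozygous for Cre deletion (Sox2-Cre) of floxed exon 16, which is specific to the longest DIDO protein, and DIDO3ΔCT+HADIDO3 cells carried a C-terminal deletion of DIDO3, which affects the same exon, and stably expressed HA-tagged DIDO3. The last are also called the reconstituted cells. The reconstituted group thus carries another allele than DIDO3ΔE16, and no library of DIDO3ΔCT cells without HADIDO3 was used here. All groups were grown in serum and LIF, on mitomycin-treated fibroblasts or on gelatin, and the labels do not say which support each library had. No source states that the libraries came from separate cultures, so the spread between them may be technical, and bulk RNA cannot separate more expressing cells from more RNA per cell.

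Values are in TPM, a unit that corrects for feature length and library size. WT replicates 2 and 3 carry 1 library number between them and count as 1 library, WT replicate 2-3. Coverage times length came to 1.46 to 2.62 Gb per library. The distal Dido1 feature, which checks the labels, stood at 13.7 to 17.9 TPM in WT, 0.307 to 0.546 in DIDO3ΔE16 and 10.9 to 12.1 in the reconstituted cells. All 10 ESC markers were above 1 TPM in every library, but some differed widely between libraries of a group. In WT, Nanog was 664, 676 and 3.10 TPM, Esrrb 30.7, 1176 and 29.8, and Pou5f1 168, 180 and 484. Esrrb was 1947, 51.4 and 1729 TPM in the reconstituted cells. Other markers were steadier in WT, such as Sox2 (485.2, 459.5 and 472.8 TPM) and Fgf4 (671, 689 and 708). Whether the wide gaps lie in the cells or in how signal was assigned between features was not tested. The summed level of 10 fibroblast markers was 82.5 to 91.4 TPM in WT, 175 to 182 in DIDO3ΔE16 and 62.4 to 67.8 in the reconstituted cells. Of these 10 markers, 8 had a higher mean in DIDO3ΔE16 than in WT, while Lum and Dcn, which encode matrix proteoglycans, were at 0 in every WT library. In the reconstituted cells Thy1, a surface glycoprotein gene, stood at 52.2 to 56.1 TPM against 18.1 to 19.7 in WT, and without it the summed level was 63.1 to 71.7 TPM in WT, 142.9 to 149.9 in DIDO3ΔE16 and 10.06 to 12.8 in the reconstituted cells. There 6 of the 10 markers, among them the collagen genes Col1a1, Col1a2 and Col3a1, lay below WT in every library. The summed level of 6 primitive endoderm markers was 74.1 to 100.1 TPM in WT, 31.3 to 40.0 in DIDO3ΔE16 and 27.2 to 30.2 in DIDO3ΔCT+HADIDO3. The part of other cell types in the results that follow was not tested. The library numbers of WT replicates 1 and 4 began with C7A9, and those of the remaining 7 libraries with C79M. This prefix was read here as a family of flow cells, which no label states.

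Both runs encode relatives of Alyref. ALYREF is an RNA-binding adaptor of the TREX complex, which hands spliced and capped mRNA to the nuclear export receptor. Extra copies of such a gene can arise when a spliced mRNA is copied back into the genome or when a stretch of chromosome is duplicated in tandem. Tandem families of predicted genes are common among the transcripts of the 2-cell mouse embryo, and a small share of ESC in culture passes through a state in which such genes, the Zscan4 cluster among them, are switched on.

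The kinship with Alyref can be read at the start of the coding sequence. The next lines give 30 coding bases of Gm4301 (run 1, chr10:100335706-100335735, plus strand) and Gm4340 (run 2, chr10:104195406-104195435, plus strand) beside the first 30 coding bases of Alyref (chr11:120598309-120598338, minus strand) and of Alyref2, its intronless relative (chr1:171503657-171503686, plus strand), all in mm10. Capitals mark bases that differ from Alyref.
Alyref: atggccgacaaaatggacatgtctttggac
Gm4301: atggcTgacaaaatggacatgtcAttggaA
Gm4340: atggcTgacaaaatggacatgtcAttggaA
Alyref2: atggccgacaaGatggacatgtctttggac
The same 30 bases stood in all 13 annotated coding sequences compared from the 2 runs, each differing from Alyref at 3 bases. In 11 of these 13 the shared stretch was preceded by 9 further coding bases, and in Gm21293 and Gm21304 the annotated coding sequence began with it.

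Over the whole coding sequence the copies of a run were closer to each other than to the other run or to Alyref. Identity, counted over aligned columns with gaps included, was 94.1 to 100% within run 1 (15 pairs, 4 of them identical) and 97.0 to 100% within run 2 (21 pairs, 6 identical). Within run 2 no pair of coding sequences differed by a substitution, and the differences were gaps of 9 to 24 columns. Gm4301 and Gm4312, which lie at the 2 ends of run 1 on opposite strands, had the same coding sequence, as had Gm4303, Gm4305 and Gm4307. Between the runs identity was 84.9 to 88.9%. Alyref itself was 62.9% identical to Gm4301 and 67.6% to Gm4340, and 4931428L18Rik, another relative of Alyref on chromosome 1, was 73.5% and 79.5% identical to them.

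The annotated copies differ in build between the runs. Genes of run 1 have 1 exon, transcripts of 910 to 927 bases and coding sequences of 867 or 882 bases, and Gm4308 is annotated as an unprocessed pseudogene. The most complete transcripts of run 2, such as those of Gm6763 and Gm8764, have 2 exons and 1246 bases, with a coding sequence of 792 bases. Neighbouring copies of run 2 lie 8508 to 8522 bases apart. In run 1 the distance between the ends of neighbouring features was 5165 or 5173 bases for 2 pairs, 10240 or 10245 for 2 more, and 12257 for Gm4308 and Gm4312, the last of which is on the other strand.

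Such likeness limits what can be said of a single copy. Every window of 100 bases in the transcripts of 6 of the 7 genes compared from run 1 occurred without change in another gene of the run, and in Gm4302 the share was 91.4%. In run 2 the share was 100% for 5 genes, 94.5% for Gm4340 and 88.5% for Gm21293. The annotated Gm21293 transcript (chr10:104144317-104153674) ends inside that of Gm6763 (chr10:104151497-104153965). Part of the sequence they share can thus be the same genomic bases. No such window was shared between the runs. A read of that length from inside a transcript could thus come from several copies of its run, and the summed TPM of a run was taken as the main value. The added 2 kb downstream were not compared in sequence here. They make up nearly all of most run 1 features and most of every run 2 feature, where 42 or 319 bases come before them. The window shares thus describe the transcripts, and not most of the sequence quantified in most features of either run.

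The windows upstream of the genes also fell into groups. RefSeq promoter windows (GRCm38.p6, reaching from upstream of the start to just after it) were at hand for 6 genes of each run. In run 1 they formed 2 versions that differed at 5 of 297 aligned bases, shown by a stretch in which capitals mark the bases that differ, for Gm4301 at chr10:100335448-100335477 and for Gm4305 at chr10:100350862-100350891, both on the plus strand.
Gm4301: gaccaggatggtatttgactagTtctctcA
Gm4305: gaccaggatggtatttgactagCtctctcT
Gm4312 had the version of Gm4301, and Gm4302, Gm4303 and Gm4307 had that of Gm4305. In run 2 all 6 windows were the same but for 1 position in 300, and each held an exact repeat of 30 bases whose copies began at -126 and -73 from the start. Of these windows, that of Gm21293 lies before position 104150000, the start taken for run 2. The repeat is shown once for Gm4340, where its copies lie at chr10:104193916-104193945 and chr10:104193969-104193998 on the plus strand.
Gm4340: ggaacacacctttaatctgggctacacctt
An exact internal repeat at least that long was found in 203 of 32817 promoter windows (0.619%). This 30-base sequence was found, on either strand, in 14 of 32817 promoter windows (0.0427%), of which 6 were those of run 2. The windows of Gm4301 and Gm4340 shared no stretch longer than 8 bases. A match in these letters is a description and not a binding site.

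In run 1 the summed level was low in WT, high in DIDO3ΔE16 and low again in the reconstituted cells. It was 2.86, 2.94 and 3.61 TPM in the WT libraries, 38.7, 32.4 and 21.7 in DIDO3ΔE16 replicates 1 to 3, and 3.02, 4.67 and 4.40 in DIDO3ΔCT+HADIDO3. All DIDO3ΔE16 values stood above all others, and the ranges of WT and DIDO3ΔCT+HADIDO3 overlapped. WT averaged 3.14 ± 0.410 TPM (SD, n = 3 libraries), DIDO3ΔE16 30.95 ± 8.60 and DIDO3ΔCT+HADIDO3 4.03 ± 0.884. On the scale of log2(scaled TPM + 0.1), the sum differed from WT by 3.17 in DIDO3ΔE16 (9.01-fold) and by 0.25 in DIDO3ΔCT+HADIDO3 (1.19-fold). The second difference is smaller than the pooled SD between libraries of 0.261.

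In run 2 the summed level was high in DIDO3ΔE16 and in between in DIDO3ΔCT+HADIDO3. It was 20.3, 19.9 and 27.2 TPM in WT, 257, 195 and 134 in DIDO3ΔE16, and 70.8, 66.8 and 73.5 in the reconstituted cells. The 3 groups did not overlap. WT averaged 22.5 ± 4.10 TPM (SD, n = 3 libraries), DIDO3ΔE16 195.5 ± 61.7 and DIDO3ΔCT+HADIDO3 70.35 ± 3.36. The differences from WT were 3.02 in DIDO3ΔE16 (8.11-fold) and 1.57 in DIDO3ΔCT+HADIDO3 (2.96-fold) on the same log2 scale. WT replicate 2-3 alone, the WT library whose number has the same prefix as those of both mutant groups, gave 3.26 and 0.34 for run 1 and 3.18 and 1.73 for run 2.

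**Figure D1:**
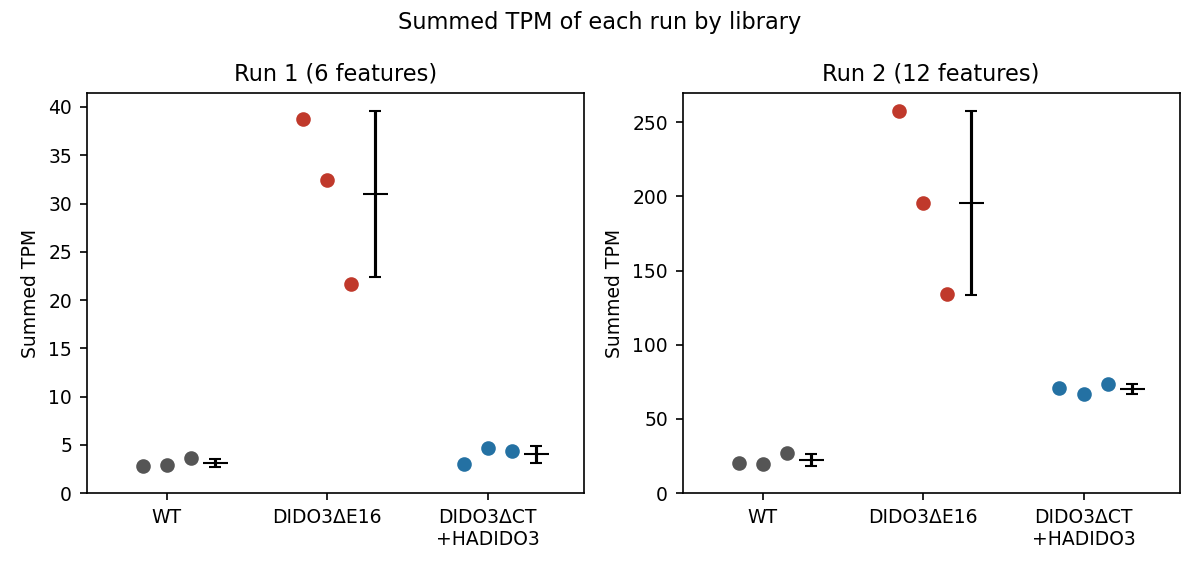
Summed TPM (linear axis) of run 1, left, and run 2, right, with 1 point per library and the mean ± SD of 3 libraries in black. The DIDO3ΔE16 points sit at 21.7 to 38.7 in run 1 and at 134 to 257 in run 2, above all others, and the DIDO3ΔCT+HADIDO3 points lie beside WT in run 1 and at 66.8 to 73.5 in run 2, above WT.

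The 3 DIDO3ΔE16 libraries differed among themselves in the same order in both runs, with replicate 1 highest and replicate 3 lowest. The depth behind these sums was small in run 1. Coverage times length came to 5.50 to 5.94 kb in run 1 and 26.7 to 37.0 kb in run 2 in the WT libraries, against 41.4 to 53.4 kb and 188 to 257 kb in DIDO3ΔE16. In DIDO3ΔCT+HADIDO3 it was 5.12 to 9.81 kb for run 1 and 99.2 to 132 kb for run 2.

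The difference between the runs is clearest as a ratio within each library, which does not depend on how libraries are scaled. Run 1 stood at 14.1, 14.7 and 13.25% of run 2 in WT and at 15.1, 16.6 and 16.2% in DIDO3ΔE16. In DIDO3ΔCT+HADIDO3 it stood at 4.27, 6.99 and 5.99%. The log2 ratio averaged -2.84 ± 0.077 for WT (SD, n = 3 libraries), -2.65 ± 0.073 for DIDO3ΔE16 and -4.15 ± 0.363 for DIDO3ΔCT+HADIDO3. The ratio in DIDO3ΔE16 thus lay 0.19 above that of WT, and the ratio in DIDO3ΔCT+HADIDO3 lay 1.31 below it, with no overlap between DIDO3ΔCT+HADIDO3 and either other group. The ratio is built from the values that chose the runs, so it was not tested.

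**Figure D2:**
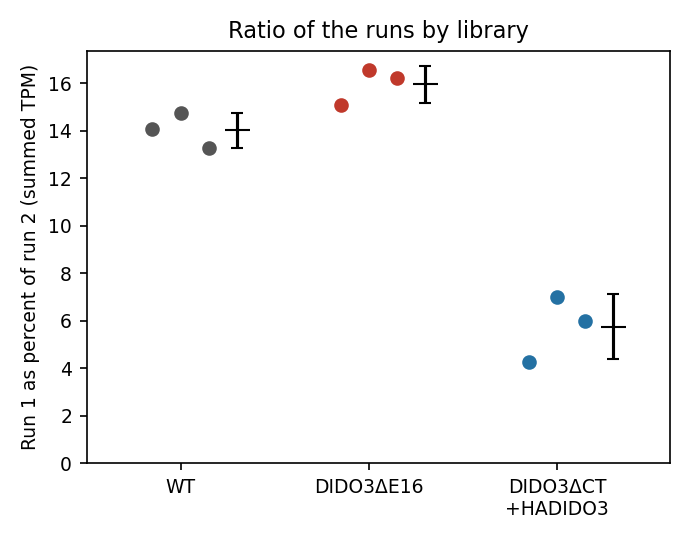
Summed TPM of run 1 as a percentage of run 2 in each library (linear axis from 0), with 1 point per library and the mean ± SD of 3 libraries in black. The WT and DIDO3ΔE16 points lie between 13.25 and 16.6%, and the DIDO3ΔCT+HADIDO3 points between 4.27 and 6.99%.

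Single features of run 1 were mostly under 1 TPM in WT. Gm4301 (uc011xml.1, plus strand) had 0.294, 0.194 and 0.813 TPM in WT, 3.96, 4.96 and 3.32 in DIDO3ΔE16 and 0.436, 0.506 and 0.433 in the reconstituted cells. Gm4302 (uc033fsj.1) had 0.564, 0.416 and 0.128 TPM in WT, 6.46, 5.79 and 2.75 in DIDO3ΔE16 and 0.716, 0.849 and 1.099 in the reconstituted cells. In both genes DIDO3ΔE16 stood apart from the other groups, and only in Gm4302 were all DIDO3ΔCT+HADIDO3 values above those of WT. The member of run 1 with the highest mean in each group was uc033fsk.1, a feature of 2 exons that runs from the 3′ end of Gm4303 through Gm4305. It had 0.873, 1.23 and 0.974 TPM in WT, 13.7, 9.54 and 7.25 in DIDO3ΔE16 and 0.515, 1.31 and 1.29 in the reconstituted cells.

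In the remaining members of run 1 DIDO3ΔE16 was again highest, and the reconstituted cells differed from gene to gene. Gm4307 (uc033fsl.1) had 0.224, 0.292 and 0.482 TPM in WT, 4.40, 4.23 and 2.92 in DIDO3ΔE16 and 0.600, 0.981 and 0.918 in the reconstituted cells. The pseudogene Gm4308 (uc011xmp.1) had 0.403, 0.264 and 0.509 TPM in WT, 5.57, 3.66 and 2.36 in DIDO3ΔE16 and 0.401, 0.851 and 0.346 in the reconstituted cells. Gm4312 (uc011xmq.1), the copy on the minus strand, had 0.505, 0.538 and 0.702 TPM in WT, 4.68, 4.2 and 3.12 in DIDO3ΔE16 and 0.355, 0.170 and 0.316 in the reconstituted cells. In Gm4312 every reconstituted library lay below every WT library, and in Gm4307 every one lay above. Over all sums of overlapping features 33.9% lay above in this way, and the share below was not counted. Coverage times length in WT was as low as 0.304 kb in Gm4307 and 0.628 kb in Gm4312. The log2 difference from WT among the 6 members ranged from 2.53 to 3.44 in DIDO3ΔE16 (median 3.09) and from -0.94 to 1.12 in DIDO3ΔCT+HADIDO3 (median 0.20).

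Run 2 has overlapping features, and its values were summed by copy, that is over features of a strand that share bases. The 12 features formed 6 copies. The copy of Gm21293 and Gm6763 had 3.49, 3.16 and 4.96 TPM in WT, 44.0, 32.9 and 25.3 in DIDO3ΔE16 and 11.9, 10.5 and 12.6 in the reconstituted cells, all of it assigned to the Gm6763 feature (uc011xmv.1), while the Gm21293 feature (uc011xmw.1) was listed at 0 in every library. Gm4340 (uc033fsn.1), the last copy, had 3.05, 2.65 and 4.12 TPM in WT, 40.2, 32.8 and 26.2 in DIDO3ΔE16 and 13.3, 12.7 and 12 in the reconstituted cells. In both copies the 3 groups were apart. Gm8764, Gm21304 and Gm21312 lay between 2.81 and 5.31 TPM in WT, between 24.1 and 44.3 in DIDO3ΔE16 and between 10.7 and 12.5 in the reconstituted cells.

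Gm20765 was the exception in 1 library. It had 3.50, 3.70 and 4.97 TPM in WT and 11.4, 10.9 and 11.7 in DIDO3ΔCT+HADIDO3, but 42.5, 32.2 and 3.32 in DIDO3ΔE16, so that DIDO3ΔE16 replicate 3 lay below every WT library. In the same library the other 5 copies stood at 24.1 to 30.7 TPM. The 6 copies were otherwise close to each other, with a highest value 1.04 to 1.46 times the lowest in each of the other 8 libraries, where run 1 had ratios of 2.02 to 7.72 over all 9. The log2 difference from WT among the copies of run 2 ranged from 1.97 (Gm20765) to 3.24 in DIDO3ΔE16 (median 3.06) and from 1.39 to 1.86 in DIDO3ΔCT+HADIDO3 (median 1.49).

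**Figure D3:**
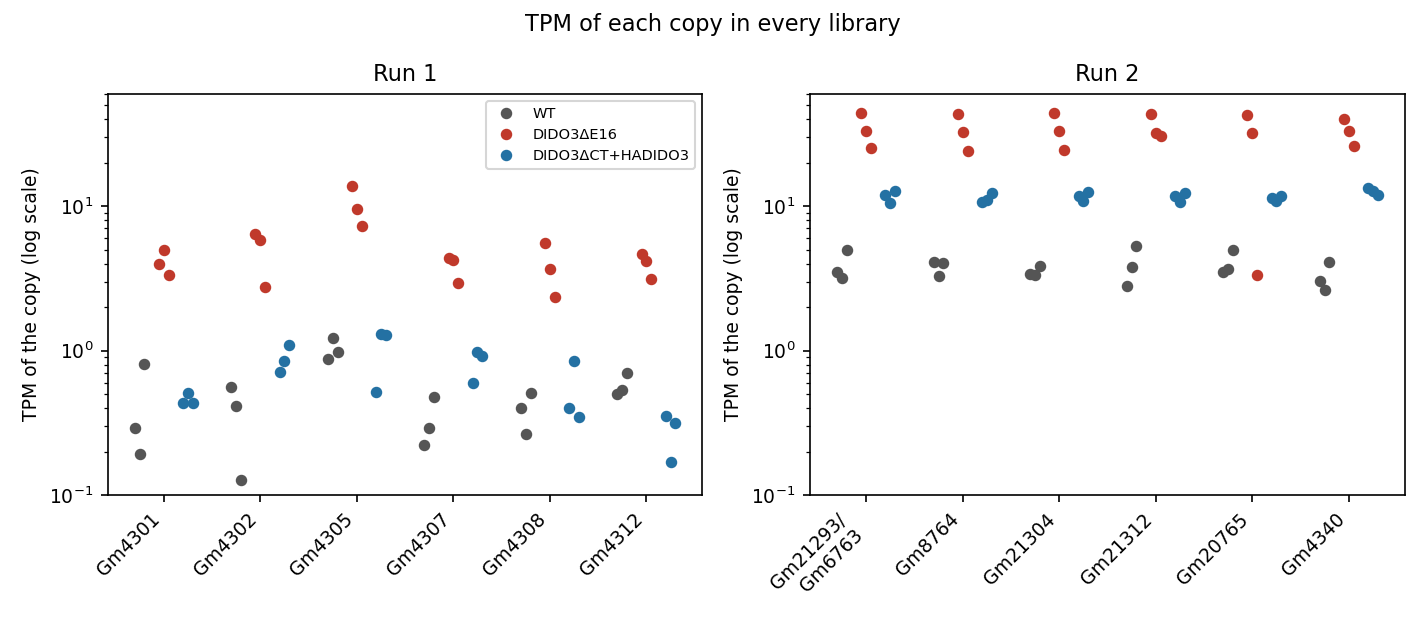
TPM of each copy (log axis) in every library, with copies of run 1 on the left and of run 2 on the right in chromosome order, and 1 point per library coloured by group. In run 1 the WT and DIDO3ΔCT+HADIDO3 points overlap in Gm4301, Gm4305 and Gm4308 and are apart in Gm4302, Gm4307 and Gm4312, the last with DIDO3ΔCT+HADIDO3 below WT. In run 2 the DIDO3ΔCT+HADIDO3 points form a band between 10.5 and 13.3 TPM, above WT, and Gm20765 has 1 DIDO3ΔE16 point at 3.32.

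The split of a copy between its overlapping features was not stable. In DIDO3ΔE16 replicate 3, 30.3 of the 30.7 TPM of the Gm21312 copy were assigned to uc029rff.1 and 0.424 to uc029rfe.1, whereas in DIDO3ΔE16 replicate 2 all 31.8 TPM were assigned to uc029rfe.1. Similar shifts occurred in the copies of Gm8764 and Gm21304. No library of WT or DIDO3ΔCT+HADIDO3 had TPM above 0 in the 6 features of run 2 that were not tested. Features with a TPM of 0 in any library compared were left out of the tests, so 12 of the 18 features were tested and 6, all of run 2, were not.

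Counts of calls are given beside the share over all features, and nothing is read from them because the runs were chosen on these contrasts. Calls required a log2 fold change of 0.7 or more in size and an adjusted p under 0.05 (limma, Benjamini-Hochberg). Relative to WT, all 6 features of run 1 and 4 of the 6 tested features of run 2 were called higher in DIDO3ΔE16, where 8.40% of all features tested were. The count for run 2 rested on single libraries, being 2 without any 1 of the WT libraries or DIDO3ΔE16 replicate 2, 3 without DIDO3ΔE16 replicate 1 and 6 without DIDO3ΔE16 replicate 3. In DIDO3ΔCT+HADIDO3, 0 of 6 features of run 1 and 6 of 6 of run 2 were called higher, where 8.03% were. Higher in DIDO3ΔE16 than in DIDO3ΔCT+HADIDO3 were 6 of 6 in run 1 and 2 of 6 in run 2, where 11.9% were, with 5 of 6 in run 2 when DIDO3ΔE16 replicate 3 was left out. The median log2 fold change of run 1 was 3.08 in DIDO3ΔE16 and 0.20 in DIDO3ΔCT+HADIDO3, and that of run 2 was 2.61 and 1.48. Over all features tested the medians were -0.02 in both comparisons. The comparisons with WT share the WT libraries.

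By copy the counts of run 2 in DIDO3ΔE16 were higher. Summing by overlap in the tests was chosen after seeing the data, and nothing is read from these counts either. With overlapping features summed, 6 of 6 copies of run 1 and 5 of 6 of run 2 were called higher in DIDO3ΔE16 than in WT (11.3% of all such sums), Gm20765 being the exception. In DIDO3ΔCT+HADIDO3, 1 copy of run 1 (Gm4307) was called higher and 1 (Gm4312) lower than WT, and all 6 of run 2 were called higher (11.1% higher over all sums). Directly between the lines, 6 copies of run 1 and 5 of run 2 were higher in DIDO3ΔE16 (14.7%). All 3 DIDO3ΔE16 libraries exceeded all 3 WT libraries in 6 copies of run 1 and 5 of run 2, where 28.9% of all sums did. All 3 DIDO3ΔCT+HADIDO3 libraries exceeded all WT libraries in 2 copies of run 1 and 6 of run 2, where 33.9% did. The DIDO3ΔE16 libraries exceeded all DIDO3ΔCT+HADIDO3 libraries in 6 copies of run 1 and 5 of run 2, where 30.8% did.

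Alyref and its relatives on other chromosomes were set beside the copies. Alyref (uc007mtl.1, chromosome 11) had 80.2, 71.7 and 73.6 TPM in WT, 67.7, 73.8 and 77.0 in DIDO3ΔE16 and 85.6, 82.2 and 80.7 in the reconstituted cells. Its log2 fold change from WT was -0.11 (SE 0.066; adjusted p = 0.309, limma) in DIDO3ΔE16 and 0.05 (SE 0.059; adjusted p = 0.620, limma) in DIDO3ΔCT+HADIDO3, so it was called in neither. Summed over the copies, run 2 in DIDO3ΔE16 exceeded this Alyref feature in all 3 libraries, and in WT it stood below that feature in all 3. A sum over copies and the most abundant feature of 1 gene are unlike measures, so this does not rank the genes. Alyref2 (uc007dop.1) had 1.47, 0.870 and 1.78 TPM in WT, 1.37, 1.77 and 2.34 in DIDO3ΔE16 and 3.55, 3.42 and 3.28 in the reconstituted cells. It rose in DIDO3ΔCT+HADIDO3 by 1.22 on the log2 scale (SE 0.28; adjusted p = 0.0318, limma), a call lost when WT replicate 1 or any 1 of the DIDO3ΔCT+HADIDO3 libraries was left out (adjusted p up to 0.0967). The feature of 4931428L18Rik (uc007anl.2, chr1:31200942-31203352, minus strand) lies upstream of the coding sequence compared above, which starts at chr1:30998879-30998908. It thus does not measure the Alyref-like part of that gene. Its values were 0, 0.189 and 0 TPM in WT, 0.239, 0.259 and 0.310 in DIDO3ΔE16 and 0, 0 and 0.041 in the reconstituted cells.

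Around the runs, no site tested was called higher than in WT. Between 100 and 105 Mb of chromosome 10, 21 further features at 14 sites belong to 11 genes, and 7 of these features were at 0 in every library. Of the 7 sites tested between DIDO3ΔE16 and WT, 0 were called higher and 1 lower, where 12.6% of all features were called in either direction. Of the 8 sites tested between DIDO3ΔCT+HADIDO3 and WT, 0 were called higher and 4 lower (Tmtc3, Rassf9, Lrriq1 and Slc6a15), where 13.9% were called. Rassf9 was under 1 TPM throughout, with 0.570, 0.423 and 0.395 in WT and 0.039, 0.095 and 0.079 in the reconstituted cells. Its log2 fold change there ran from -2.69 to -0.47 over the alternative settings. The median log2 fold change of the tested features was -0.24 and -1.03. Alx1, a homeobox gene near the middle of the interval, was not tested because it was at 0 in 1 WT library. It had 0.004, 0 and 0.058 TPM in WT, 0.134, 0.397 and 0.179 in DIDO3ΔE16 and 0.306, 0.157 and 0.212 in the reconstituted cells, so that all values of both lines lay above WT at levels under 1 TPM.

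Kitl, which encodes the ligand of the KIT receptor, lies just before run 1. It had 1.76, 1.71 and 1.74 TPM in WT, 1.05, 1.16 and 1.81 in DIDO3ΔE16 and 1.13, 1.28 and 1.07 in the reconstituted cells (uc011xmk.1). Its log2 fold change was -0.45 in DIDO3ΔE16 (SE 0.23; adjusted p = 0.242, limma) and -0.64 in DIDO3ΔCT+HADIDO3 (SE 0.13; adjusted p = 0.0232, limma), the second being past the p threshold and under the fold threshold. All DIDO3ΔCT+HADIDO3 values of Kitl lay below WT.

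Tmtc3, a transmembrane protein with tetratricopeptide repeats, follows run 1. Its 2 overlapping features added up to 86.2, 110 and 79.9 TPM in WT, 69.0, 65.7 and 68.2 in DIDO3ΔE16 and 41.5, 50.03 and 54.4 in the reconstituted cells. Summed Tmtc3 fell by 1.02 (log2) in DIDO3ΔCT+HADIDO3 (adjusted p = 0.00360, limma on summed features) and its log2 fold change of -0.49 in the exon 16 deletion was not called (adjusted p = 0.0239, limma). One of its features, uc007gxu.1, was called lower in both lines when tested apart, but its share of the sum moved between libraries and the call in DIDO3ΔE16 was absent for the sum.

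Slc6a15, an amino acid transporter gene, and Lrriq1 lie between the runs, nearest to run 2. Slc6a15 (uc007gyk.2) had 8.23, 7.35 and 6.88 TPM in WT, 9.97, 11.2 and 12.2 in DIDO3ΔE16 and 1.63, 1.65 and 1.26 in the reconstituted cells. It fell by 2.33 on the log2 scale in DIDO3ΔCT+HADIDO3 (SE 0.16; adjusted p = 0.00101, limma), and in DIDO3ΔE16 a difference of 0.50 was under the fold threshold (adjusted p = 0.0328, limma). Lrriq1 (uc007gyi.1) had 1.77, 2.32 and 1.35 TPM in WT, 2.93, 2.81 and 2.06 in DIDO3ΔE16 and 0.913, 0.532 and 0.529 in the reconstituted cells, a log2 fall by 1.43 in the latter (adjusted p = 0.0258, limma). Leaving out WT replicate 1 or 2-3, or DIDO3ΔCT+HADIDO3 replicate 2 or 3, ended the Lrriq1 call (adjusted p up to 0.0852). The gene nearest to run 2, Slc6a15, was thus lower in the reconstituted cells, in which run 2 stood above WT.

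The 2 other expressed genes of the interval were not called. Cep290, a centrosome and cilium gene, differed from WT by -0.24 on the log2 scale in DIDO3ΔE16 (adjusted p = 0.297, limma) and by 0.42 in the reconstituted cells (adjusted p = 0.146, limma). Feature uc007gxx.2 of 4930430F08Rik ranged from 3.93 to 20.3 TPM within WT, and its 2 features were called in neither line.

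**Figure D4:**
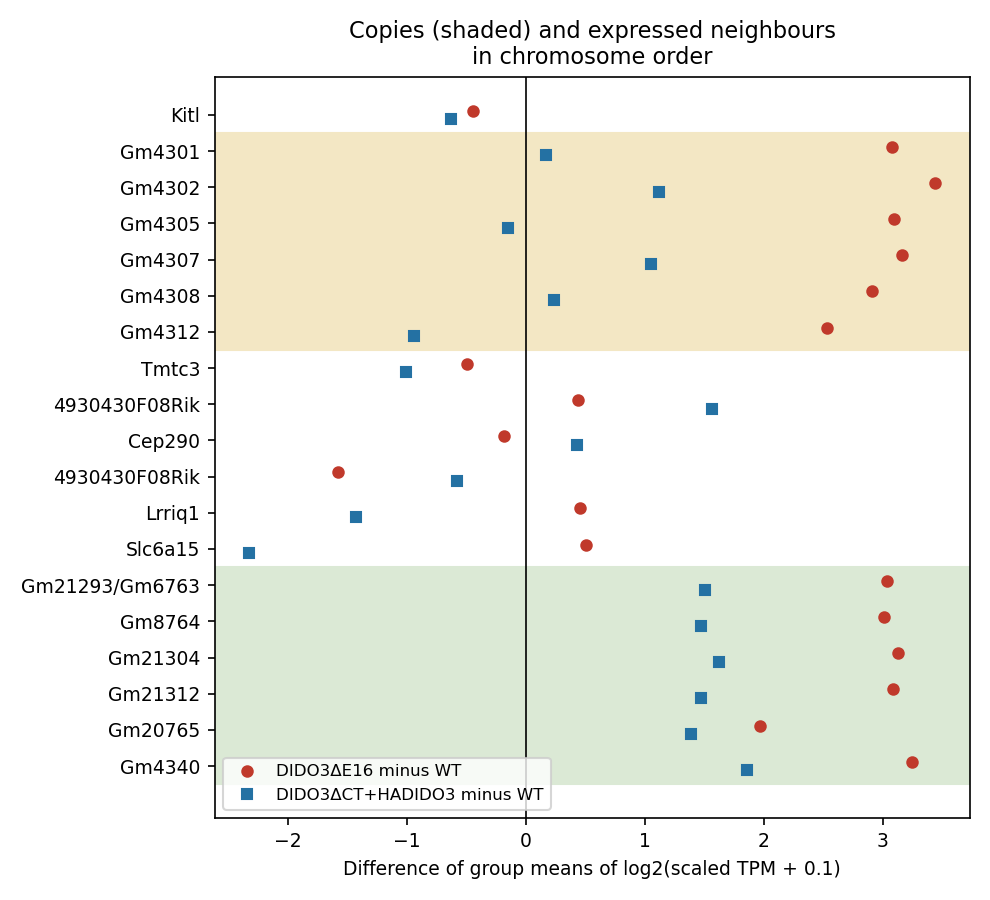
Differences of group means from WT, on the scale of log2(scaled TPM + 0.1), for DIDO3ΔE16 (circles) and DIDO3ΔCT+HADIDO3 (squares), with the copies of both runs (shaded) and the genes of the interval whose mean reached 1 TPM in some group in chromosome order. Circles of the copies lie between 1.97 and 3.44, those of the neighbours between -1.58 and 0.51, and squares of run 2 between 1.39 and 1.86.

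The runs were also set beside genes that mark the 2-cell stage. The list of 40 genes was drawn up with earlier results of these data known, so it is no independent evidence of direction. Of its members, 32 had a feature, taken as the most abundant 1 per gene. In DIDO3ΔE16 30 were tested, of which 24 were called higher than WT and 0 lower (8.40% of all features called higher). In DIDO3ΔCT+HADIDO3 28 were tested, of which 15 were called higher and 0 lower (8.03%). Members at 0 in a library were left out of that count, and Tdpoz2 among them had 1.33, 1.52 and 1.26 TPM in WT, 3.72, 2.98 and 3.68 in DIDO3ΔE16 and 0.166, 0 and 0.096 in the reconstituted cells. Tdpoz1 had 0.834, 0.173 and 0.341 TPM in WT, 2.12, 2.05 and 1.31 in DIDO3ΔE16 and 0, 0.154 and 0 in the reconstituted cells, so that both lay below WT there in every library. With no filter all 32 were tested in DIDO3ΔCT+HADIDO3, and 14 were called higher and 1, Tdpoz2, lower (log2 fold change -3.14, adjusted p = 0.00814, limma). The median log2 fold change was 2.23 and 1.13, against -0.02 for all features in each comparison. Leaving out 1 library left 20 to 25 calls in DIDO3ΔE16 and 14 or 15 in DIDO3ΔCT+HADIDO3. The summed level of the fibroblast markers given above was also higher in DIDO3ΔE16, and the part of fibroblasts in these calls was not tested.

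Zscan4 genes, zinc finger factors that mark the 2-cell-like state of ESC, rose in both lines. Zscan4a (uc012eyt.1) had 13.8, 12.9 and 13.7 TPM in WT, 100.5, 91.8 and 79.2 in DIDO3ΔE16 and 37.8, 39.8 and 39.3 in the reconstituted cells. The 3 groups did not overlap, and the log2 fold change was 2.67 in DIDO3ΔE16 (SE 0.10; adjusted p = 0.000316, limma) and 1.43 in DIDO3ΔCT+HADIDO3 (SE 0.055; adjusted p = 0.000290, limma). Zscan4b, Zscan4c, Zscan4d and Zscan4f were called higher in both lines as well. Their log2 fold changes were 2.22 to 2.42 in DIDO3ΔE16 and 1.22 to 1.83 in DIDO3ΔCT+HADIDO3. These genes are near-identical copies too, so the values of each are uncertain.

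The other members differed in the lines in which they were called. The predicted relatives of the translation factor gene Eif1a, namely Gm2016, Gm2022, Gm4027, Gm5662, Gm8300 and BB287469, were called higher in both lines, though the call of BB287469 in DIDO3ΔCT+HADIDO3 was lost in 5 of 6 fits that left out 1 library (adjusted p up to 0.102, limma). Gm2022 was higher in DIDO3ΔCT+HADIDO3 (10.4, 12.6 and 16.3 TPM) than in DIDO3ΔE16 (2.68, 2.87 and 3.36 TPM), a log2 fold change of -2.07 for DIDO3ΔE16 over DIDO3ΔCT+HADIDO3 (adjusted p = 0.00112, limma), with 0.704, 1.08 and 1.07 TPM in WT. Zfp352, Usp17lc and B020031M17Rik were called higher in both lines, and Tmem92 in DIDO3ΔCT+HADIDO3 alone. Tmem92 had 5.27, 41.4 and 58.9 TPM in DIDO3ΔE16, against 4.12 to 4.59 in WT, so that 1 of the 3 libraries stood near WT. Pramef25 (uc012dor.3) had 5.29, 5.34 and 6.06 TPM in WT, 31.6, 27.7 and 24.9 in DIDO3ΔE16 and 4.51, 4.39 and 4.33 in DIDO3ΔCT+HADIDO3. It rose in DIDO3ΔE16 by 2.25 on the log2 scale (SE 0.12; adjusted p = 0.000743, limma). In DIDO3ΔCT+HADIDO3 its log2 fold change of -0.42 was under the fold threshold (adjusted p = 0.0396, limma). Tcstv1, Tcstv3, Usp17la, Usp17lb, Usp17le, Tdpoz2, B020004J07Rik, AF067061 and Spz1 were likewise called in DIDO3ΔE16 and not in DIDO3ΔCT+HADIDO3, where Tdpoz2 was tested only with no filter. Leaving out 1 library ended the DIDO3ΔE16 call of Spz1 in 6 of 6 fits, of B020004J07Rik in 5, of Usp17lb in 4 and of AF067061 in 2 (adjusted p up to 0.132, limma). Arg2, Ddit4l, Nelfa and Eif1a were called in neither line, Tdpoz1 was not called in DIDO3ΔE16 (adjusted p = 0.0545, limma), and AF067063 and Sp110, both under 1 TPM, were not tested against WT. Compared directly, Pramef25, Tcstv1, Tcstv3, Usp17la, Usp17le, B020004J07Rik and AF067061 were called higher in DIDO3ΔE16 than in DIDO3ΔCT+HADIDO3, and Usp17lb and Spz1 were not (adjusted p = 0.209 and 0.123, limma). Leaving out 1 library ended this call of AF067061 in 5 of 6 fits and of B020004J07Rik in 2.

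**Figure D5:**
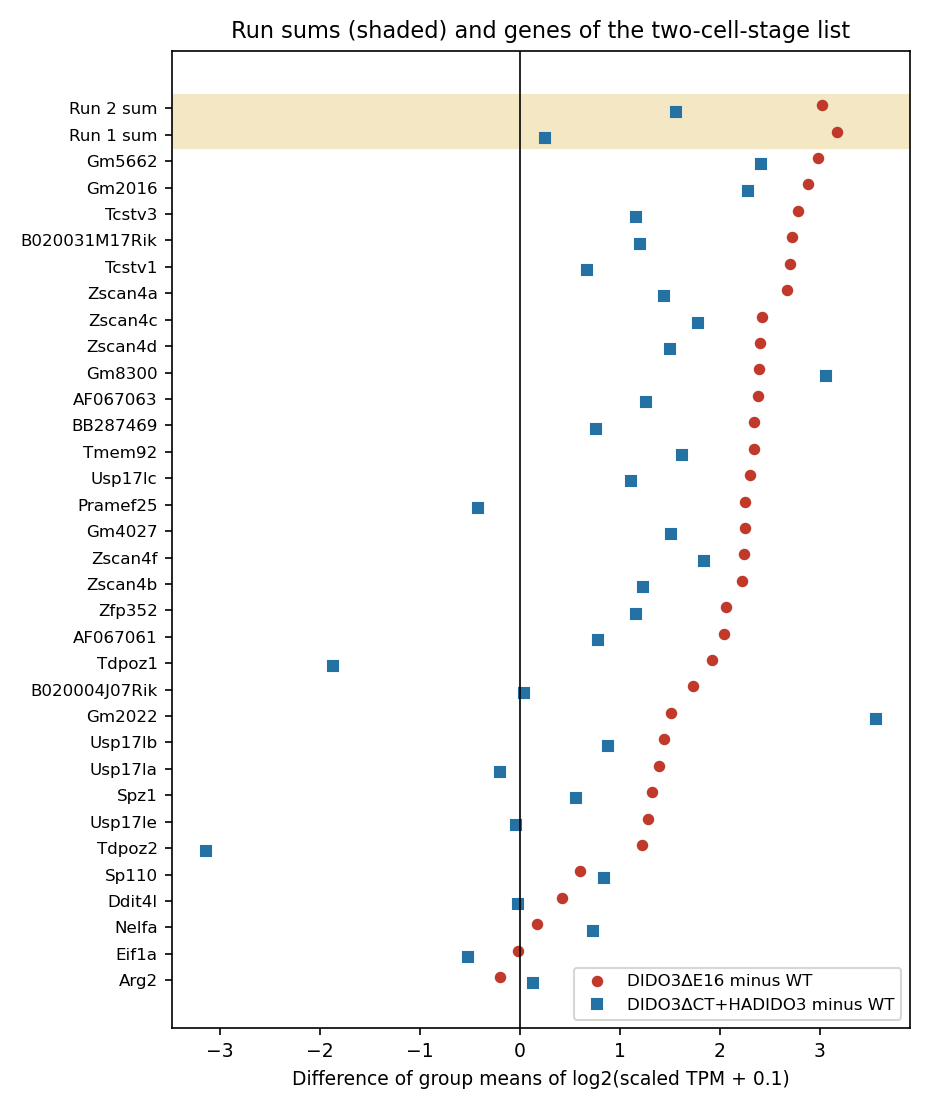
Differences of group means from WT, on the scale of log2(scaled TPM + 0.1), for DIDO3ΔE16 (circles) and DIDO3ΔCT+HADIDO3 (squares), with the sums of both runs (shaded) above all 32 genes of the 2-cell-stage list with a feature, tested or not. The run sums at 3.17 and 3.02 lie above the largest circle of the list, 2.98 for Gm5662, and the squares spread from -3.14 (Tdpoz2) to 3.56 (Gm2022).

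Likeness of pattern was measured as the Pearson correlation, over 9 libraries, of log2(scaled TPM + 0.1) with the sum of each run for 14041 genes whose mean reached 1 TPM in some group. The points fall into 3 groups, so a high value says mainly that group means lie in the same order, and no p is given. For run 1 the highest were Fam124a (0.990), Coil (0.989), Kcnab2 (0.989), N4bp2l1 (0.988) and Gas2l1 (0.987). Coil encodes the scaffold of Cajal bodies, and its sum was 80.8, 79.6 and 79.05 TPM in WT, 133, 134 and 131 in DIDO3ΔE16 and 81.2, 86.6 and 91.1 in the reconstituted cells. Gas2l1, a cytoskeletal linker gene, stood at 9.33, 8.98 and 11.9 TPM in WT, 65.5, 50.4 and 49.3 in DIDO3ΔE16 and 9.42, 10.8 and 9.76 in the reconstituted cells.

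For run 2 the highest were Acaa1b (0.992), Zfp352 (0.992), Slfn2 (0.992), Zscan4b (0.990) and Zscan4a (0.990). Zfp352, Zscan4b and Zscan4a are on the 2-cell-stage list, and none of the 5 of run 1 is. The list holds 32 genes with a feature, and 14041 genes were compared. The ranking uses the values that chose the runs, and the list was drawn up with earlier results known, so nothing is read from this. Zfp352 had 0.471, 0.544 and 0.707 TPM in WT, 3.52, 2.55 and 2.43 in DIDO3ΔE16 and 1.42, 1.37 and 1.66 in the reconstituted cells. Slfn2, a schlafen gene of lymphocyte quiescence, had 2.23, 3.02 and 3.14 TPM in WT, 21.01, 19.45 and 11.3 in DIDO3ΔE16 and 7.18, 6.67 and 7.76 in the reconstituted cells. All 10 genes lie on other chromosomes. Like the sums of both runs, all 10 were lowest in replicate 3 among the DIDO3ΔE16 libraries, an order that choice by correlation favours.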

How the data were processed

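RNA from mouse ESC was sequenced in 10 labelled samples, and WT replicates 2 and 3, which share a library number, were taken as 1 library, leaving 9. The authors aligned reads to mm10 with BWA 0.7.15 and removed duplicates with Picard tools. They estimated TPM and coverage signal with StringTie 1.3.3 on UCSC 3′UTRs with 2 kb added. Deposited TPM values were used, and read counts were not used here. The coverage deposited by the authors served only for depth and for 1 alternative scale. The counting command names no strand option, so antisense reads could not be told apart.

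TPM values were scaled by a trimmed mean (30% at each end), a pseudocount of 0.1 was added, and log2 values were tested with limma 3.58.1 in R 4.3.3 (trend and robust variance, Benjamini-Hochberg). Features had TPM above 0 in every library compared. Calls needed a log2 change of 0.7 or more in size with adjusted p under 0.05. The script was tested on simulated data.

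Symbols came from GENCODE vM21 by transcript end. Sequences came from its transcripts and from RefSeq promoters (12 of 14 genes matched, Gm4303 included), with Biopython 1.88. The text names all members, neighbours whose mean reached 1 TPM in some group, 2-cell-stage list members called in either line, Dido1 and, per run, the 5 genes most alike. Alyref relatives, Alx1, Rassf9, the markers and the remaining list members were named outside that rule, after their values were seen. The runs and lists were chosen with earlier results of these data known. The planned permutation test of the run ratio was left out because the ratio uses the values that chose the runs. With 3 libraries per group, p-values measure only the spread between these libraries. Alternatives were pseudocount, filter, scaling, summing features, the replicate block and leaving out each library.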

Additional observations from a re-analysis of the deposited data

How the results depend on the processing

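On coverage times length in place of TPM, the log2 ratio of run 1 to run 2 was -2.47 in WT and -2.26 in DIDO3ΔE16. Leaving out 1 library gave ratios of -2.87 to -2.80 in WT, -2.68 to -2.61 in DIDO3ΔE16 and -4.305 to -3.95 in DIDO3ΔCT+HADIDO3. It gave log2 differences from WT of 2.99 to 3.41 and 0.13 to 0.43 for run 1, and of 2.795 to 3.27 and 1.485 to 1.72 for run 2. Sites called around the runs numbered 0 to 1 in DIDO3ΔE16 and 2 to 4 in DIDO3ΔCT+HADIDO3, with 0 when WT replicate 1, 2-3 or 4 or DIDO3ΔE16 replicate 2 or 3 was left out, and 2 without WT replicate 1 or DIDO3ΔCT+HADIDO3 replicate 3. Called features numbered 2533 to 2843, 2917 to 3302 and, between the lines, 5336 to 5481. For the Gm21312 feature uc029rfe.1 between the lines, the sign turned to 1.61 when overlapping features were summed, which was chosen after seeing the data, and leaving out 1 library gave -1.71 (without DIDO3ΔE16 replicate 2) to 1.25 (without replicate 3). With the replicate block, 4679 features were called between the lines, against 5780 without it. Between the lines, the deviations of same-numbered libraries from their group means correlated at 0.024, -0.017 and 0.010, so the numbers did not pair them. Coverage of single run 1 copies in WT, as low as 0.152 kb, limits what their values can show.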
